A study of Mus musculus with 8 samples.

Results

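Processed pseudogenes are copies of messenger RNAs that were written back into the genome. They lack the introns of the parent gene, and most carry no promoter of their own. Genes that are transcribed in the germ line at high levels, above all those of ribosomal proteins, left many such copies in mammalian genomes. Because a copy can match its parent base for base over the length of a ribosome footprint, a short read from the parent's messenger RNA can also align to the pseudogene.

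The annotation of the count table labels 5924 transcripts as processed pseudogenes, out of 109463 transcripts of 45578 genes, and all 5924 were taken. Each belongs to a different gene. Their annotated lengths ran from 18 to 6514 bases, with a median of 545. Of the 5924, 4755 carry only a predicted-gene symbol (Gm and a number), 138 are named after proteins of the large ribosomal subunit, 97 after proteins of the small subunit, 248 carry another symbol with the suffix -ps, and 686 carry other names, mostly those of sequenced clones.

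Ribosome-protected fragments were counted in brains of mice at postnatal day 5. The animals are of a mouse line used to model spinal muscular atrophy (SMA), known as the Taiwanese line, in which the mouse Smn gene is disrupted and a human SMN2 transgene supplies little of the survival motor neuron protein SMN. All 8 libraries carry the SMN2tg/0 transgene. The 3 SMN immunoprecipitates and the 1 IgG immunoprecipitate, the control for unspecific pull-down, came from Smn+/-; SMN2tg/0 mice, which the labels call control. RiboLace captures ribosomes in active translation. The 2 RiboLace libraries and the 2 libraries of polysomes came from early symptomatic Smn-/-; SMN2tg/0 mice. A comparison of the SMN immunoprecipitates with polysomes therefore differs in genotype and in protocol at once, and the effects of these cannot be told apart.

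With 1 transcript kept per gene, the SMN libraries held 190198 to 350023 reads and the IgG library 322626. The RiboLace libraries were the shallowest, with 69852 and 58985 reads, and the polysome libraries the deepest, with 1851465 and 2548966. A floor of 3 counts, in counts per 1000000 reads (CPM), equals 8.57 to 15.8 in the SMN libraries and 9.30 in IgG. It equals 42.9 and 50.9 in RiboLace, against 1.62 and 1.18 in polysomes. SMN replicate 2 stood apart: over all genes, its counts differed from those of SMN replicates 1 and 3 with a chi-square of 3.69 and 3.57 per gene, against 1.40 between replicates 1 and 3. The RiboLace pair differed by no more than sampling noise over all genes (1.04 per gene, chi-square test p = 0.0733). The labels call these libraries biological replicates, and the group has no other pair to set this against, so they were kept as 2 samples. Smn1 (ENSMUSG00000021645), the targeted gene, had 22, 13 and 34 reads in the SMN libraries and 6 in IgG, and 2 and 0 reads in the RiboLace libraries against 51 and 77 in polysomes. Reads on Smn1 in Smn-/- brains, at 27.5 and 30.2 CPM in polysomes, do not check the genotype, since the part of the gene that they cover is not given. Neuronal markers summed to 4815 to 6814 CPM over the 8 libraries, while the summed markers of tissues other than brain reached at most 50.9 CPM. Blood markers summed to 3608 and 4255 CPM in RiboLace against 1714 and 2332 in polysomes, and to 1076 to 1554 in the immunoprecipitates; their part in the comparisons was not tested.

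The likeness of a copy to its parent can be read in the sequence of Tma7-ps, a pseudogene of Tma7, the gene of a translation machinery associated protein. It is shown because it is a named pair for which RefSeq start-site windows (GRCm38.p6) of both genes were at hand; 36 of the 5924 processed pseudogenes matched such a window by symbol. The stretch lies at chr1:171711072-171711098 on the + strand, and its capitals mark the start codon.
Tma7-ps: aggggctggaggcgccATGtcgggccg
The same 27 bases occur once, unbroken, in the window of Tma7, where they run up to the window's end, so that the shared run may be longer. Over the 8 libraries, Tma7-ps held 126 reads and Tma7 held 176. Per kilobase, with the coding length used for the parent, the pseudogene stood at 0.716 of its parent.

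Shares of reads on processed pseudogenes depend on the transcripts counted. Keeping 1 transcript per gene left out counts on other transcripts but none on processed pseudogenes, which raises their share. Over all transcripts as deposited, the mean share was 3.97% for SMN, 4.96% for RiboLace and 3.74% for polysomes, and IgG had 4.09%. With 1 transcript per gene, processed pseudogenes held 9.57%, 4.69% and 8.57% of the reads in SMN replicates 1 to 3, against 8.02% in IgG. They held 8.78% and 8.84% in the RiboLace libraries, against 7.29% and 7.11% in polysomes. Exact 95% binomial intervals, which cover counting error only, were narrow, the widest running from 8.61% to 9.07% in RiboLace replicate 2. SMN replicate 2 was the lowest of the 8 libraries, and without it the SMN mean was 9.07% in place of 7.61% ± 2.58 (SD, n = 3). Both RiboLace libraries lay above both polysome libraries, by 1.61 percentage points on average.

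An exact two-sided permutation test, which cannot reach 0.05 with so few libraries, gave p = 1 for SMN against IgG, p = 0.333 for RiboLace against polysomes and p = 1 for SMN against polysomes, where the smallest p possible was 0.25, 0.333 and 0.1. Unprocessed pseudogenes, which arise by duplication of genes, took far less, with group means between 0.178% and 0.505%. Of the reads on processed pseudogenes and coding genes together, the pseudogenes made up 11.5% ± 0.236 in RiboLace against 7.41% ± 0.138 in polysomes (SD, n = 2 each), and 9.86% ± 3.15 (SD, n = 3) for SMN against 11.1% for IgG. Rows annotated as ribosomal RNA took 4.46% and 5.12% of the RiboLace reads against 0.128% and 0.122% of the polysome reads. They took 2.87%, 5.75% and 3.05% in SMN replicates 1 to 3, against 3.37% in IgG. Their part in these shares was not tested.

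With 1 coding transcript counted per coding gene, ribosomal protein pseudogenes held a large part of the reads of their family. Counts on other transcripts of the coding genes are left out, which raises this part. The 235 pseudogenes with such symbols held 42.9%, 32.0% and 41.9% of all reads on ribosomal protein pseudogenes and their 80 coding genes together in SMN replicates 1 to 3, against 42.6% in IgG. They held 39.8% and 43.7% in RiboLace, against 40.0% and 41.0% in polysomes. Apart from SMN replicate 2, which was lowest here too, all libraries lay between 39.8% and 43.7%. The exact permutation test gave p = 0.75, 1 and 1 for SMN against IgG, RiboLace against polysomes and SMN against polysomes.

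**Figure D1:**
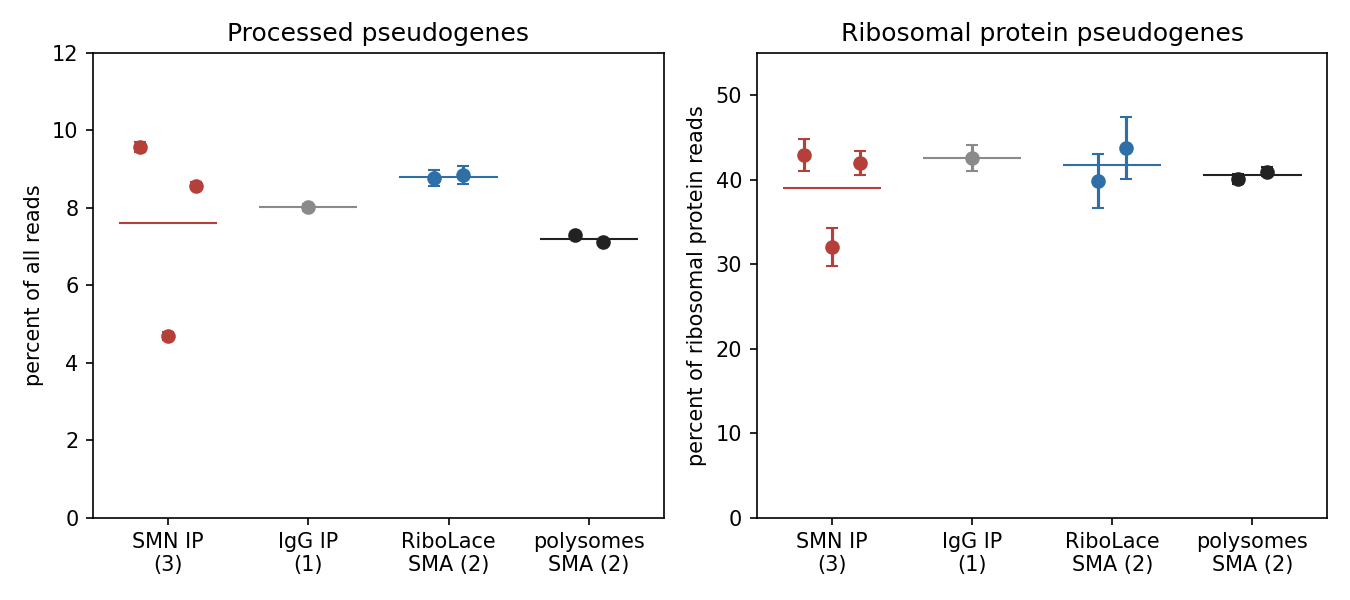
The left panel gives the share of reads on processed pseudogenes, in percent of all reads with 1 transcript kept per gene. The right panel gives the percent of reads on ribosomal protein pseudogenes and coding genes that fall on pseudogenes, with 1 coding transcript counted per coding gene. Each point is 1 library with its exact 95% binomial interval and each line a group mean; SMN replicate 2 is lowest in both, at 4.69% and 32.0%, and the 2 RiboLace libraries sit above the 2 polysome libraries on the left.

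The reads were spread over many pseudogenes. Of the 5924, 4328 had at least 1 read in some library and 1596 had none. At least 10 reads fell on 2960, at least 100 on 997, and at least 1000 on 40. A read was seen in all 8 libraries for 848, and 738 were read in polysomes only, the 2 deepest libraries. The top pseudogene held 2.51% of the reads on processed pseudogenes, the top 10 held 11.2%, the top 100 held 32.2% and the top 500 held 63.0%.

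Families differed in how often their members were read. Of the large-subunit pseudogenes 94.9% had a read, and of the small-subunit pseudogenes 96.9%, against 72.6% of the predicted genes. The predicted genes nevertheless held 77.9% of all reads on processed pseudogenes, since they are so many. The large-subunit members held 4.10%, the small-subunit members 3.20%, the other -ps symbols 6.55% and the remaining names 8.29%. No processed pseudogene with 100 reads or more had the same 8 counts as any other gene, so none of these 997 rows is a plain repeat of another gene's row.

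The 20 pseudogenes with the highest mean CPM over the 4 groups included 17 with Gm symbols, 2 clone names and Vcp-rs. Gm14150, annotated by RefSeq at chr2:151458901-151460455, was the highest. It stood at 5423, 2224 and 4520 CPM in the SMN libraries, 4451 in IgG, 3493 and 3916 in RiboLace, and 1317 and 1135 in polysomes. Gm5620, at chr9:91097093-91098662, had 4911, 1861 and 3843 CPM in the SMN libraries, 3850 in IgG, 3450 and 3781 in RiboLace, and 1229 and 1071 in polysomes. Both were lowest in the 2 polysome libraries, and SMN replicate 2 was again lowest among the immunoprecipitates. Gm15599, at chr17:5110614-5112159, was likewise lowest in polysomes, with 2345, 878 and 1840 CPM in the SMN libraries, 2009 in IgG, 1117 and 1255 in RiboLace, and 441 and 369 in polysomes.

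The table pairs no Gm symbol with a parent, so the likeness of the 8 counts was used as a description only. For each of the 20, the coding gene with at least as many reads whose 8 counts were most nearly proportional was looked up among 9 to 454 such genes, a step chosen after the values were seen. A pseudogene and a parent may hold the same reads, so this likeness is no independent evidence. Tried on the 10 pairs with a named parent and the most reads, the look-up ranked that parent first for only 1, Pgam1-ps2. For 8 the parent was not among the first 2, counting Rpl3-ps1, where Rpl3 held too few reads to be a candidate. A gene so found is therefore not shown to be the parent. For 14 of the 20, the deviation was at most 1.5 chi-square per degree of freedom, close to counting noise. The annotated length of 10 of the 20 lay within 2% of the coding length of the gene so found, a feature that the look-up did not use. Some were near ties: Gm12892 came out nearest to Scd2 (0.902), with Syp (0.940) and Apoe (1.05) close behind.

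The counts of 5 pseudogenes were most like those of alpha-tubulin genes, which encode a building block of microtubules. Gm14150 came out nearest to Tuba1c, with a chi-square of 0.883 per degree of freedom, and Gm5620 nearest to Tuba1a, with 0.979. Gm15599 also came out nearest to Tuba1c, but with 4.84, well above counting noise. Actin genes, of the cell's microfilaments, were nearest for 3 pseudogenes. Gm12715 is 1128 bases long, as is the coding sequence of Actg1, and its 4837 reads were spread over the libraries most like the 5470 of Actg1, among 43 coding genes. Gm6682 and Gm3756, both 297 bases long, were nearest to Actb with 2.30 and 2.03. The polyubiquitin gene Ubb was nearest for Gm1821 (1.23), and Eef1a1, the gene of translation elongation factor 1 alpha, for 3 pseudogenes. Gm11223, with 450 bases, was nearest to Stmn1, whose coding sequence has 450 bases and whose product destabilises microtubules (1.43). Gm4202 and Gm6180 were nearest to the 14-3-3 genes Ywhaz (0.607) and Ywhae (0.575). The name Vcp-rs itself points to Vcp, the gene of an ATPase that extracts proteins from complexes, and Vcp was also the nearest of 189 coding genes (0.208).

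Averaged over the 4 groups, Gm14150 stood at 2481 CPM per kilobase and Gm5620 at 2254. The short Gm6682 and Gm3756 came next with 1743 and 1517, followed by Gm1821 with 1400, Gm11223 with 1150 and Gm12715 with 1113. Vcp-rs was the lowest of the 20 per kilobase, with 164. The level of Vcp-rs differed little between groups: it had 412, 347 and 397 CPM in the SMN libraries, 366 in IgG, 358 and 441 in RiboLace, and 425 and 433 in polysomes, so that RiboLace and polysomes overlapped.

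**Figure D2:**
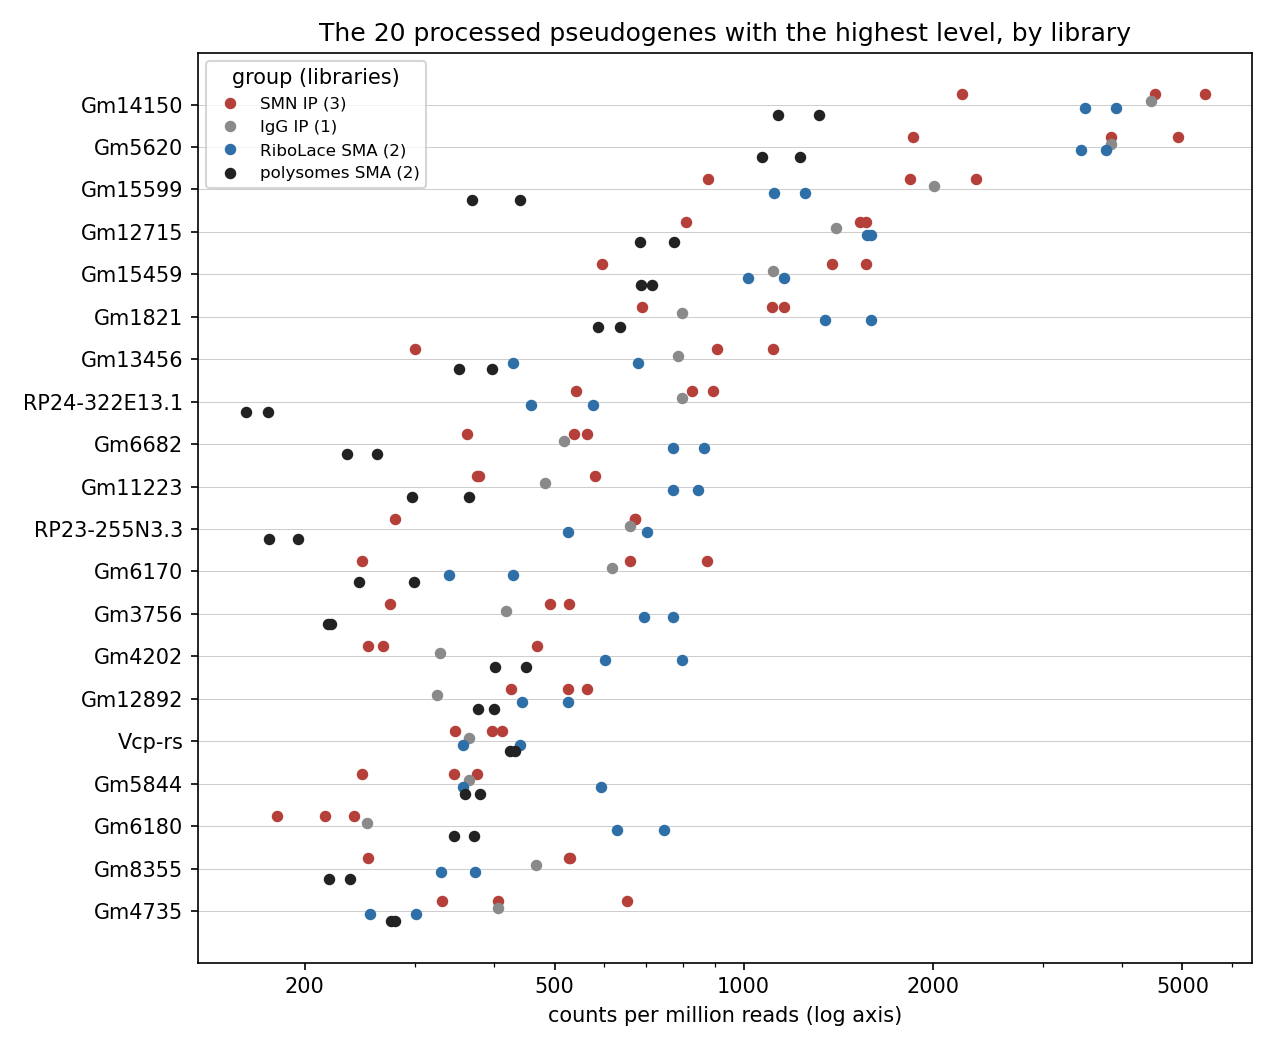
Level of the 20 processed pseudogenes with the highest mean over groups, as counts per 1000000 reads on a log axis. Each point is 1 library, coloured by group; for Gm14150 at the top, the polysome libraries lie at 1317 and 1135 and all other libraries at 2224 or more, whereas the points of Vcp-rs lie together between 347 and 441.

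For 483 processed pseudogenes the symbol ends in -ps, with or without a number. The rest of the symbol was that of a coding gene in the table for 394, with 171 parents. The comparison was limited to the 361 pseudogenes of 142 parents with at least 100 reads. Each parent was counted by its coding transcript with the highest total, so counts on its other transcripts are left out. Over the 8 libraries, the reads per kilobase of a pseudogene stood at a median of 0.205 of the reads per kilobase of coding length of the parent. The quartiles were 0.0698 and 0.485. The ratio was under 0.1 for 102 pseudogenes, of which 18 had no read, above 0.5 for 88 and above 1 for 5. With the whole transcript length of the parent in place of its coding length the median was 0.395, so the level of the ratio depends on the choice of length. The annotated length of a pseudogene was typically that of the parent's coding sequence, with a median of 0.997 of it.

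The libraries gave similar ratios. The median over pairs was 0.217 in the SMN libraries, 0.218 in IgG, 0.180 in RiboLace and 0.202 in polysomes. It was 0.224 for large-subunit pseudogenes, 0.254 for small-subunit pseudogenes and 0.161 for the other names. Within each family the spread was far wider than these differences, with quartiles of 0.0585 and 0.589 for the large subunit.

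**Figure D3:**
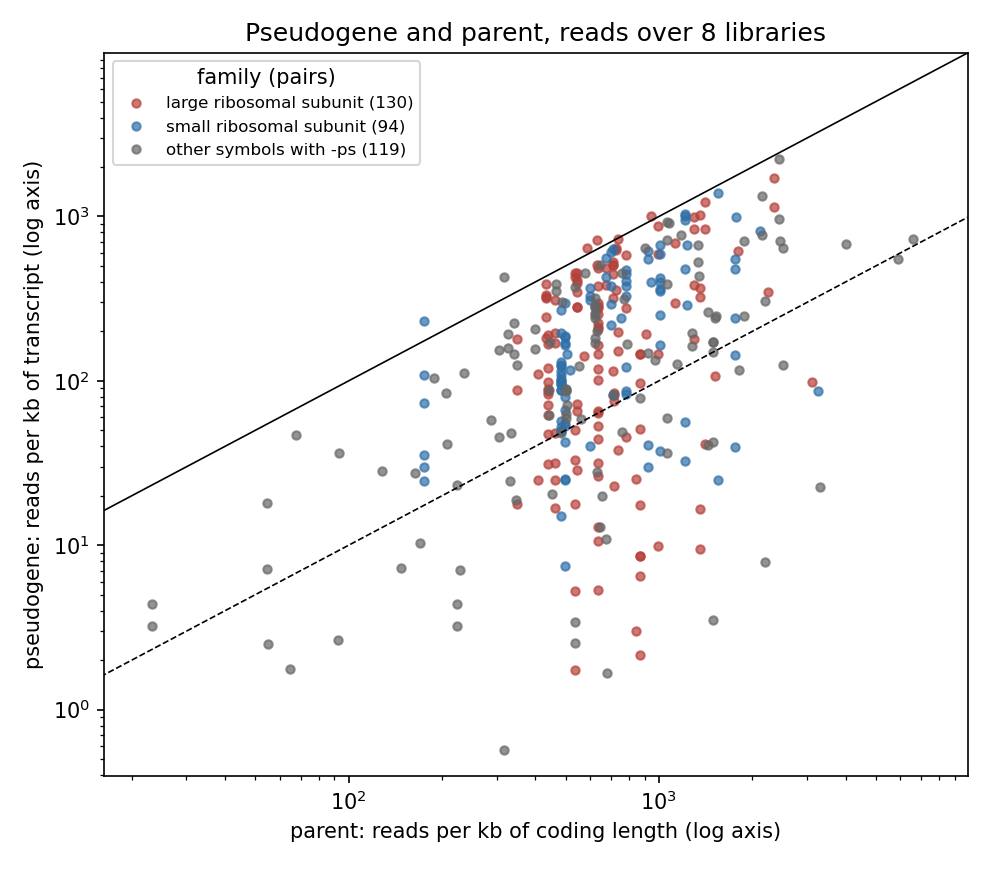
Reads per kilobase of each pseudogene named after a parent (y axis, log) against reads per kilobase of coding length of that parent (x axis, log), summed over the 8 libraries, for pairs with 100 or more parent reads and at least 1 pseudogene read. The solid line marks equal values and the dashed line 0.1 of it; 5 pseudogenes lie above the solid line, and columns of points at one x value are copies of one parent.

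The 10 named pseudogenes with the most reads came from 7 parents. Tubb4b-ps1 held 1773 reads and Tubb4b-ps2 held 1035, against 2872 on Tubb4b, the gene of a beta-tubulin. Tubb4b-ps1 had 72, 49 and 119 reads in the SMN libraries, 114 in IgG, 21 and 13 in RiboLace, and 596 and 789 in polysomes. The parent Tubb4b had 111, 102 and 180 in the SMN libraries, 165 in IgG, 39 and 22 in RiboLace, and 971 and 1282 in polysomes. In every library, then, the pseudogene had fewer reads than the parent, and the ratio per kilobase ran only between 0.558 and 0.692 over the groups.

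Pgam1-ps2 came closer to its parent. Pgam1 encodes phosphoglycerate mutase, a glycolytic enzyme. Pgam1-ps2 had 66, 72 and 144 reads in the SMN libraries, 121 in IgG, 22 and 23 in RiboLace, and 541 and 711 in polysomes. Pgam1 had 75, 77 and 139 in the SMN libraries, 118 in IgG, 30 and 23 in RiboLace, and 614 and 792 in polysomes. In SMN replicate 3 and in IgG the pseudogene held more reads than the coding transcript of the gene, and in the other libraries as many or fewer. Both are 765 bases long, counting the coding sequence of the parent, and the ratio over all libraries was 0.910. A second copy, Pgam1-ps1, stood at 0.394.

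Rpl3-ps1 exceeded the coding transcript used for its parent. It held 868 reads against 766 on that transcript of Rpl3, the gene of a core protein of the large ribosomal subunit. Per kilobase it held 1.14 times the reads. Another transcript of Rpl3, with a retained intron, had a higher library-scaled total and is not used here. An excess over the whole gene is therefore not shown. Rpl3-ps1 had 54, 22 and 75 reads in the SMN libraries, 75 in IgG, 7 and 5 in RiboLace, and 290 and 340 in polysomes. The coding transcript of Rpl3 had 52, 20 and 85 in the SMN libraries, 65 in IgG, 8 and 4 in RiboLace, and 212 and 320 in polysomes. The excess over this transcript was seen in 6 of the 8 libraries. Rpl3-ps2, the second copy, stood at 0.802.

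The remaining pairs lay between these. Got2-ps1 stood at 0.651 of Got2, a mitochondrial aspartate aminotransferase, and Hspd1-ps3 at 0.596 of Hspd1, the mitochondrial chaperonin. Rpl19-ps11 stood at 0.770 of Rpl19, and Rps16-ps2 at 0.895 of Rps16, both genes of ribosomal proteins. The other 4 pseudogenes above the coding transcript of their parent were Scp2-ps2 (1.34), Rps2-ps13 (1.32), Rpl34-ps1 (1.10) and Rpl18-ps1 (1.07). They were singled out after the values were seen. Of these, Scp2-ps2 is only 432 bases long against 1644 of coding length for Scp2, the gene of a sterol carrier protein, and held 184 reads against 521.

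Where a parent has many copies, the copies together often held more reads than the gene. The 22 pseudogenes named after Rpl31 held 1308 reads against 241 on Rpl31 itself, the 20 named after Rps12 held 780 against 193, and the 14 named after Rps19 held 626 against 218. The same was seen for 9 copies of Rpsa, a small-subunit protein also known as a laminin receptor, with 2665 against 895 reads, and for 9 copies of Hmgb1, a chromatin protein, with 1434 against 403. Rpl23a was an exception, with 219 reads on 13 pseudogenes against 408 on its coding transcript. A read may be counted on several of these rows, so such a sum can exceed the number of reads behind it.

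The SMN immunoprecipitates were set against IgG to ask what was pulled down with SMN beyond unspecific material. The IgG arm is 1 library, and hardly any gene of any kind passed the test. Of the 5924 processed pseudogenes, 613 passed the filter on low counts, and edgeR's quasi-likelihood test called 0 at an adjusted p under 0.05, against 0% of all 7312 genes tested called higher and 0.0137% called lower. Without adjustment, 0 of the 613 were higher and 3 lower at p under 0.05, beside 136 higher and 63 lower of all 7312 genes, and DESeq2 and limma-voom also called 0. The median log2 fold change was 0.01 over these 613 and 0.06 over all genes tested.

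The pseudogenes nearest to a call were few-read ones. RP24-137F10.1 had 8, 2 and 9 reads in the SMN libraries against 25 in IgG (log2 fold change -1.58, SE 0.61, edgeR adjusted p = 1). RP23-239L21.4 had 9, 1 and 15 against 28, and RP23-324P1.1 had 12, 3 and 13 against 28. All 3 SMN libraries lay below IgG in reads for these, though SMN replicate 3 was deeper than IgG. On the other side, Gm13337 had 7, 5 and 16 reads in the SMN libraries against 2 in IgG (log2 fold change 2.48, SE 1.29, edgeR adjusted p = 1). Gm13337 reached the minimum of the filter in SMN replicate 3 only, so the filter favoured its direction. Gm8174 had a log2 fold change of 1.72 and Gm13750 of 1.17, neither past the test. The spread of the single IgG library was assumed to be that of the SMN libraries. For the abundant Gm14150 and Gm5620 the log2 fold changes were -0.13 (SE 0.53) and -0.12 (SE 0.53).

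RiboLace was compared with polysomes to separate footprints of active ribosomes from those of all polysomes in SMA brain. Of the 5924 processed pseudogenes, 1608 passed the filter. Of these, edgeR called 59 higher in RiboLace and 1 lower. Among the 59, the 9 described below passed the filter through RiboLace alone and had to differ. Others of the 59 may have passed in the same way, which was not counted. The shares called were 3.67% higher and 0.0622% lower, against 5.6% and 4.42% of all 13367 genes tested (10% in either direction). With a minimum count of 50 the order of these shares turned, with 91 of 366 pseudogenes and 736 of 5513 genes called higher. Without polysome replicate 1 or 2, the filter, which follows the median library size, became stricter, and 118 and 121 pseudogenes were tested. Their median log2 fold change was then 0.91 and 0.86, against -0.042 and -0.025 over all genes. A stricter filter also admits rows through RiboLace alone, pseudogenes and other genes alike. The turned order with a minimum count of 50 is therefore not read as a result about pseudogenes. The median log2 fold change was 0.16 over the pseudogenes tested and -0.33 over all genes tested; without RiboLace replicate 1 or replicate 2 it was -0.23 and -0.077 over the pseudogenes and -0.67 and -0.51 over all genes, so that all genes shifted too. In 96 of the 1608, neither RiboLace library had a read; with such genes at the bound that 3 counts over both libraries allow, or at 0 where that allows no fold, the median stayed 0.16 for pseudogenes and was -0.22 for all genes. Counts of calls depend on the tool and on both shallow RiboLace libraries, for all genes as for pseudogenes. By limma-voom 3 pseudogenes and 271 of all 13367 genes were called. Without RiboLace replicate 1, 20 pseudogenes and 437 of 15965 genes were called, and without replicate 2, 27 and 498 of 16035.

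The pseudogenes whose counts were nearest to alpha-tubulin genes were among those higher in RiboLace. In TMM-scaled CPM, used for all fold changes, Gm14150 stood at 3851 and 4296 in RiboLace against 1316 and 1109 in polysomes (log2 fold change 1.75, SE 0.15, edgeR adjusted p = 1.6e-28). Gm5620 stood at 3803 and 4147 against 1229 and 1047, a log2 fold change of 1.80 (SE 0.15). Tuba1a, picked because its counts were most like those of Gm5620, had a log2 fold change of 1.85 (SE 0.16). The look-up used these same libraries, so a close fold change was fixed by the choice. The groups did not overlap for any of the 3.

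Pseudogenes with counts nearest to actin genes and to Ubb were also higher. Gm6682 stood at 852 and 948 CPM in RiboLace against 260.2 and 229 in polysomes (log2 fold change 1.88, SE 0.19, edgeR adjusted p = 1.19e-21), and Gm3756 at 852 and 762 against 220.3 and 213. Gm12715 had 1736 and 1748 against 774 and 669, a log2 fold change of 1.27 (SE 0.16), beside 1.18 (SE 0.16) for Actg1. For Gm1821 the log2 fold change was 1.41 (SE 0.16), beside 1.43 (SE 0.16) for Ubb. Actg1 and Ubb were picked by likeness of counts in these same libraries, so close fold changes were fixed by the choice. Under limma-voom the calls of these pseudogenes, Gm14150 and Gm5620 included, were lost, and the direction was unchanged.

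Of the 79 large-subunit members tested, 1 was called higher and 1 lower. Rpsa-ps12 was the 1 of 52 small-subunit members called higher, with 174 and 149 CPM in RiboLace against 58.8 and 57.1 in polysomes (log2 fold change 1.48, SE 0.41, edgeR adjusted p = 0.0052). Actg-ps1 was the 1 of 94 with other -ps symbols, with 379 and 279 against 197 and 179 (0.83, SE 0.26). Both are named because the counts are so small, after the values were seen, and neither was called without RiboLace replicate 1 or without RiboLace replicate 2. The shares higher were 1.27%, 1.92% and 1.06% for large-subunit, small-subunit and other -ps members, below the 5.6% of all 13367 genes tested. Of all genes, 4.42% were lower. Of the 80 ribosomal protein coding genes, 3 (3.75%) were higher and 0 lower. Of 48 other coding genes known for many pseudogenes, 16 (33.3%) were higher and 0 lower, against 15 and 1 on library totals.

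The 1 pseudogene called lower was Rpl36a-ps3, with 0 and 0 reads in RiboLace against 76 and 106 in polysomes. Set at 3 counts for the sum of the RiboLace pair, its level was at least 1.59-fold lower (edgeR adjusted p = 0.0473). It was not called by DESeq2, with an adjusted p of 0.121, nor without RiboLace replicate 1 (0.293) or replicate 2 (0.249). None of the 10 pseudogenes named after a parent that had the most reads passed the test. Pgam1-ps2 had 347 and 428 CPM in RiboLace against 292 and 273 in polysomes (log2 fold change 0.45, SE 0.24, edgeR adjusted p = 0.268), beside 0.51 (SE 0.23) for Pgam1. Tubb4b-ps1 had a log2 fold change of -0.10 (SE 0.26), beside 0.04 (SE 0.22) for Tubb4b.

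**Figure D4:**
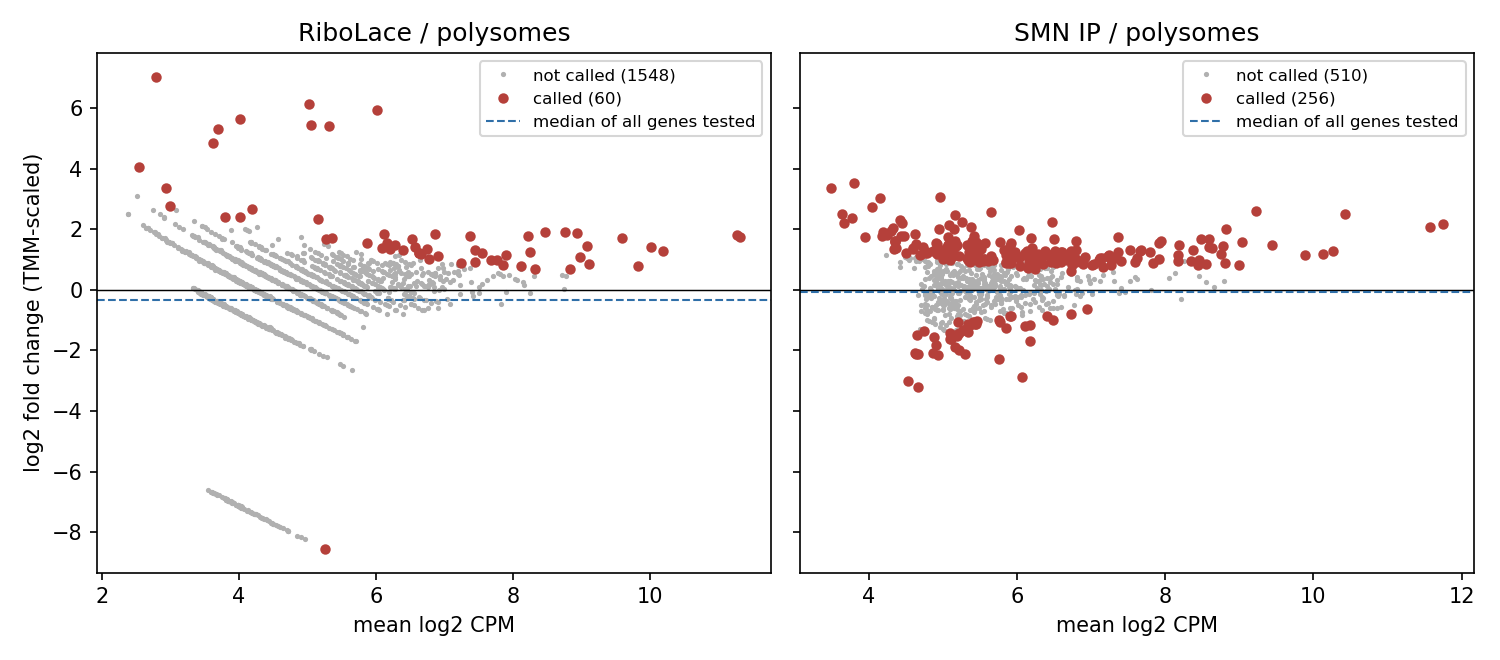
Log2 fold change of processed pseudogenes (y axis, TMM-scaled) against mean log2 CPM (x axis) for RiboLace over polysomes (left) and SMN immunoprecipitates over polysomes (right). Red points passed edgeR's adjusted p under 0.05 (60 and 256), grey points did not, and the dashed line is the median of all genes tested; on the left, the lowest band holds the 96 pseudogenes with no RiboLace read, whose fitted values are no measured fold.

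A group of 9 pseudogenes stood far above the others in RiboLace, with log2 fold changes over 4, a limit chosen after the values were seen. Their values in polysomes were all 9.18 CPM or lower, so they passed the filter on low counts through the RiboLace libraries and had to differ; their folds are a description, with no test. They are RP23-324P1.1, RP23-239L21.4, RP23-299O17.4, RP23-256D7.2, RP24-323L24.1, Gm13722, Gm37515, Gm14735 and Gm38356. Of these, 8 are between 2681 and 3859 bases long, far above the median of 545, and Gm38356 has 408 bases. RP23-324P1.1 had 25 and 19 reads in RiboLace against 12 and 15 in the far deeper polysome libraries, which is 395 and 353 TMM-scaled CPM against 6.48 and 5.75 (log2 fold change 5.93). RP23-299O17.4 stood at 253 and 298 against 3.24 and 4.22, a log2 fold change of 6.12. RP24-323L24.1 had only 2 and 3 reads in RiboLace.

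Together the 9 held 271, 57.8 and 220 CPM in the SMN libraries, 474 in IgG, 1646 and 1543 in RiboLace, and 38.9 and 34.9 in polysomes. IgG lay above all 3 SMN libraries, and RiboLace above all others. In SMN against IgG, 6 of the 9 were tested, 0 of the 6 had a positive fold change and 0 passed the test. Of all 613 pseudogenes tested there, 311 had a positive fold change. Gm13722, Gm37515 and RP23-256D7.2 met the minimum of the filter in IgG only, so their direction was fixed in advance. RP23-239L21.4 and RP23-324P1.1 were among the 3 with the smallest p on the lower side.

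The coding genes Tmem38b and Lars2, named after their values were seen, had log2 fold changes of 4.84 (SE 0.24) and 4.46 (SE 0.20) in RiboLace against polysomes. Of all 13367 genes tested there, 749 were called higher. The rows annotated as ribosomal RNA took 4.46% and 5.12% of reads in RiboLace and 0.128% and 0.122% in polysomes. They took 2.87%, 5.75% and 3.05% in SMN replicates 1 to 3 and 3.37% in IgG. The part of ribosomal RNA in the values of these pseudogenes was not tested.

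**Figure D5:**
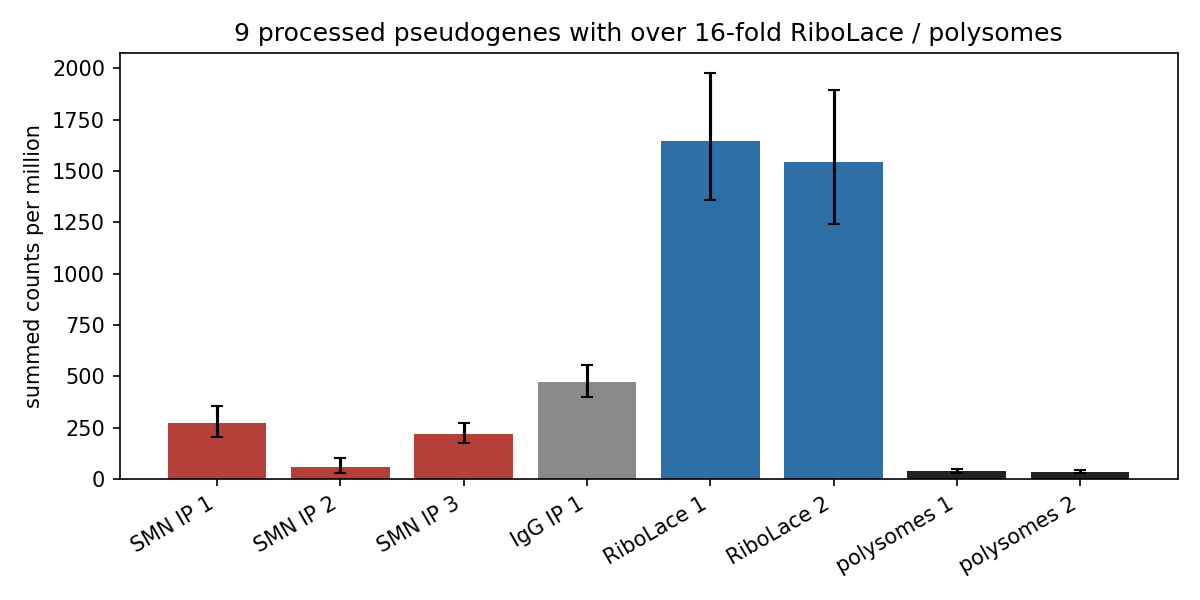
Summed counts per 1000000 reads of the 9 processed pseudogenes with a log2 fold change over 4 in RiboLace against polysomes, in each library; bars start at 0 and carry exact 95% binomial intervals for counting error. The RiboLace libraries reach 1646 and 1543, the IgG library 474, and the polysome libraries 38.9 and 34.9.

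Set against polysomes of SMA brain, the SMN immunoprecipitates showed many more differences. Of the 5924 processed pseudogenes, 766 passed the filter, and edgeR called 212 higher in the SMN libraries and 44 lower. That is 27.7% higher and 5.74% lower, against 21.5% and 15.7% of all 9119 genes tested (37.1% in either direction). On library totals, without TMM scaling, 88 were higher and 168 lower, beside 1302 higher and 3671 lower of all 9119 genes, and the median of all genes moved to -0.55 from -0.08 with TMM, so the direction of a small change depends on the scaling. Relative to the median of all genes, the pseudogenes lay 0.39 higher on the log2 scale with TMM and 0.39 higher on library totals. Over the fits that left out 1 library, the count ran from 41 without polysome replicate 1 to 510 without SMN replicate 2.

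Predicted genes were among the largest rises. Gm15599 stood at 2938, 1128 and 2232 TMM-scaled CPM in the SMN libraries against 406 and 336 in polysomes (log2 fold change 2.50, SE 0.37, edgeR adjusted p = 7.2e-05). Gm14150 stood at 6795, 2857 and 5484 against 1212 and 1034 (2.17, SE 0.36). For Tuba1c, whose counts were the most like those of both, the log2 fold change was 2.27 (SE 0.36). That likeness was taken over these same libraries, so a close fold change was fixed by the choice. Every SMN library lay above both polysome libraries for both pseudogenes, and each was also called higher on library totals. The less abundant Gm6963 reached a similar value: it stood at 145, 60.8 and 100.5 CPM in the SMN libraries against 17.4 and 17.2 in polysomes (2.56, SE 0.31).

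The largest falls were on pseudogenes with few reads in the SMN libraries. Gm11407 had 4, 3 and 1 reads there, which is 25.2, 20.3 and 3.47 TMM-scaled CPM in the SMN libraries against 93.9 and 103 in polysomes (log2 fold change -2.87, SE 0.44, edgeR adjusted p = 0.000111). Gm11410 stood at 31.5, 13.5 and 6.93 CPM against 69.1 and 77.6 (-2.28, SE 0.43), and Gm8566 at 31.5, 20.3 and 34.7 against 99.4 and 96.5 (-1.69, SE 0.31). That the groups did not overlap for these 3 was a condition of naming them. Each was also called lower in every fit that left out 1 SMN library.

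Ribosomal protein pseudogenes were called in 1 direction with TMM, but not on library totals. Of 41 large-subunit members tested, 7 were higher and 0 lower with TMM, against 1 and 2 on library totals. Of 36 small-subunit members, 5 were higher and 0 lower with TMM, against 0 and 9 on library totals. Of all 9119 genes tested, 1302 were higher and 3671 lower on library totals. With TMM, 17.1% and 13.9% of these families were higher, both below the 21.5% of all genes. All 5 of the small-subunit members called higher with TMM were copies of Rpsa, and 3 of the 7 of the large subunit were copies of Rpl35a. Rpl3-ps1 stood at 340, 149 and 260.0 CPM in the SMN libraries against 144 and 122 in polysomes (log2 fold change 0.92, SE 0.29, edgeR adjusted p = 0.0244). It was not called on library totals (adjusted p = 0.192), nor without SMN replicate 1 or 3 or either polysome library. Among 79 ribosomal protein coding genes tested, 22 were higher and 2 lower with TMM, against 9 and 13 on library totals.

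The other -ps symbols gave 6 higher and 3 lower of 55 tested with TMM (10.9% and 5.45%), against 21.5% and 15.7% of all genes. On library totals, beside 1302 higher and 3671 lower of all 9119 genes, they gave 2 higher and 13 lower. Actg-ps1 had the largest rise of them, with 724, 311 and 624 CPM in the SMN libraries against 181 and 167 in polysomes (log2 fold change 1.68, SE 0.32, edgeR adjusted p = 0.000901). Both copies of Pgam1 were called with TMM (Pgam1-ps2 not on library totals, adjusted p = 0.196), Pgam1-ps2 at a log2 fold change of 0.84 (SE 0.25) and Pgam1-ps1 at 0.81 (SE 0.23), beside 0.74 (SE 0.24) for Pgam1. The 3 called lower, named after their values were seen, were Atp5k-ps2, Hist3h2bb-ps and Tcea1-ps1. Atp5k-ps2 had 0, 0 and 4 reads in the SMN libraries against 58 and 85 in the deeper polysome libraries. Vcp-rs did not differ detectably, with a log2 fold change of 0.29 (SE 0.24), nor did Gm6180, with -0.30 (SE 0.25).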

How the data were processed

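Ribosome-protected fragments of mouse brain were deposited as raw read counts per Ensembl transcript, per the file headers. The submitters' processing notes name Trimmomatic 0.36, Bowtie2 2.2.6, SAMtools and the build GRCm38.p4, which are the steps the authors took before they deposited the counts. The treatment of reads with several alignments is not stated in any source at hand. Such reads may be counted on a pseudogene, its parent or both.

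The transcript with the highest library-scaled total was kept for each gene. Of the parents, the coding transcript with the highest total was used for ratios. Counts were fitted with edgeR 4.0.16 (quasi-likelihood, robust, TMM, filterByExpr with a minimum count of 10) in R 4.3.3 on all genes, and p-values were adjusted over all genes by Benjamini-Hochberg at a threshold of 0.05. The SE is the log2 fold change over the square root of F. The code was tested on simulated data. DESeq2 1.42.0, limma 3.58.1 (limma-voom), other filters, no TMM, a replicate block and leaving out each library were tried. Shares were compared by exact permutation tests, with scipy 1.17.1 under Python 3.11.15. Intervals and floors cover counting error only.

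Named genes were the 20 with the highest mean level, the 10 pairs with the most reads and called pseudogenes with the largest fold changes. Of the last kind, at most 10 were taken per comparison and direction. Each needed libraries whose values were apart in the compared groups, and its mean log2 CPM had to reach 5. For a pseudogene named by this rule alone, separate groups are therefore no finding. Others are said to be chosen after their values. The members and lists were chosen with earlier results of these data known. Same-numbered libraries did not deviate together (correlations of 0.011 and 0.011 for RiboLace and polysomes, 0.0078 and 0.040 for SMN and polysomes), so the main fits have no block. Some items are not reported here.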

Additional observations from a re-analysis of the deposited data

How the results depend on the processing

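For SMN against IgG, 0 processed pseudogenes were called under every alternative that was run; a replicate block could not be fitted there with 1 IgG library. For RiboLace against polysomes, the 60 calls became 91 with a minimum count of 50, 3 with limma-voom and 37 with a replicate block. They ranged from 20 (without RiboLace replicate 1) to 41 (without polysome replicate 1) when 1 library was left out, with 27 without RiboLace replicate 2. With the RiboLace pair summed as 1 library, chosen after seeing the data, there were 62. The median log2 fold change, 0.16, was -1.61 with no filter and ranged from -0.23 to 0.91 when 1 library was left out, -0.077 without RiboLace replicate 2; that of all genes, -0.33, was -1.11 with no filter and ranged from -0.67 to -0.025. For SMN against polysomes, the 256 calls became 146 with DESeq2, 27 with a minimum count of 50 and 49 with a replicate block. They were 41 and 43 without polysome replicates 1 and 2, and 150, 510 and 89 without SMN replicates 1, 2 and 3. The share of reads, with processed pseudogenes and coding genes as denominator, was 11.1% in IgG, 11.5% in RiboLace and 7.41% in polysomes. Over all transcripts as deposited it was 3.97% in SMN, 4.09% in IgG, 4.96% in RiboLace and 3.74% in polysomes, and without the pseudogene with the most reads 7.61% in IgG and 8.47% in RiboLace. The ratio to the parent was 0.395 with whole transcript length. Beyond the changed denominators of the shares, the cause was not tested in any of these. Depth limits RiboLace most, where 96 of 1608 tested pseudogenes had no read.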
